A study of Homo sapiens with 30 samples.

Results

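The genes described here encode the nuclear-made proteins of the last steps of mitochondrial respiration: complex III, cytochrome c, complex IV and ATP synthase. They were taken by symbol, as those that start with ATP5, UQCR or COX4 to COX8, together with CYC1 and CYCS, and 6 symbols of pseudogenes were dropped. The rule found 41 of the 16975 genes listed: 10 of complex III, 12 named for complex IV, 16 of ATP synthase, CYCS, and the ATP5-named genes ATP5S and ATP5SL. The table uses older symbols, so that ATP5A1 is now called ATP5F1A, ATP5E is ATP5F1E and ATP5G1 is ATP5MC1. The tissue-restricted isoforms COX4I2, COX6A2, COX7A1, COX7B2 and COX8C are not in the table and were not analysed here.

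Complex III passes electrons from ubiquinol to cytochrome c, a small soluble carrier, and complex IV passes them on to oxygen. Both pump protons across the inner membrane of the mitochondrion, and ATP synthase lets the protons flow back through a ring of c subunits to drive the making of ATP. The catalytic core of complex IV and cytochrome b of complex III are encoded in mitochondrial DNA, and the nuclear subunits measured here are made in the cytosol, imported and assembled around them.

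The cells were human embryonic kidney HEK293 cells, untreated and harvested before they were confluent. Of the 10 groups of 3 samples, 8 were CRISPR knockouts made in HEK28, a HEK293 line that secretes factor VIII, each lacking 1 gene by label: the endoplasmic reticulum chaperones CANX and CALR, the cargo receptor pair LMAN1 and MCFD2, and, from autophagy, ATG7, GABARAP, GABARAPL1 and GABARAPL2; the remaining groups were HEK28 itself and the parental HEK line. All knockout lines therefore share the HEK28 background with the factor VIII gene, and the labels do not say whether a line is 1 clone. Nor do they say how the samples within a group were raised, so p-values measure only the spread between samples, which may be technical. Transcripts were counted from short reads near their 3' ends, and 159825 (HEK28 replicate 1) to 4159375 reads (GABARAPL2 knockout replicate 1) fell in genes, with a median of 647814.5. In each knockout of CANX, CALR, LMAN1 and MCFD2 the targeted transcript was lower than in the other 7 knockouts (log2 fold change -1.15 to -3.34), and in the 4 autophagy knockouts it did not pass the test (-0.51 to -1.20). A 3' tag outside the edited stretch does not check the label. Levels are given as scaled RPM, the reads of a gene divided by the size the authors used for that library, times 1000000. They compare 1 gene between libraries and not different genes with each other. Of 7 HEK293 markers 6 were listed, and the 5 with resolved reads summed to 1757 to 3001 scaled RPM in knockout, 2327 to 3026 in HEK28 and 884 to 1041 in parental libraries. Most of that sum was NEFL, at 1282 to 2309 in knockout, 1574 to 2191 in HEK28 and 510.0 to 586 in parental libraries, while IGF2BP1 was at 93.5 to 186, 137 to 169 and 136 to 169.9 and PAX2 at no more than 10.0 in any library. Of the markers of tissue kidney, blood, fibroblast and muscle cells only 1 of 7, 3 of 4, 1 of 4 and 1 of 5 were listed. Those listed were at most 47.0 scaled RPM in any library, and germ cell markers were not in the table.

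Of the 41 genes 39 had reads in all 30 libraries, and the same 39 passed the filter on low reads and were tested. The genes not tested, ATP5L2, a copy of the g subunit gene ATP5L, and COX6B2, known as the testis isoform of COX6B, stayed at or below 22.2 and 10.6 scaled RPM.

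Stretches of promoter are shown for 6 of the genes that held a match to the motifs below. Of these, 5 rose in the HEK28-derived lines and the last, UQCRFS1, was the one that fell. Other genes that rose, such as ATP5G1, UQCRB and COX7C, had no match or were not found in the promoter table. The choice therefore does not link the motifs to the rise. The sequences are RefSeq's (build GRCh38.p14), end at or before the annotated start of the gene and read 5' to 3' on the gene's strand. Capitals mark matches, on either strand, to short motifs of factors known to act on respiratory genes, GCGCA and GCGC with any 1 base between them for NRF1, CCGGAAG for GABPA and AAGATGGC for YY1.
UQCR11 (chr19:1605463-1605599, minus strand): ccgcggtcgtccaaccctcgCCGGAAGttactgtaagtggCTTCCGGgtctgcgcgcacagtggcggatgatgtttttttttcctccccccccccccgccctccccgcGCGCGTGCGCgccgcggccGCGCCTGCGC
ATP5J (chr21:25735058-25735131, minus strand): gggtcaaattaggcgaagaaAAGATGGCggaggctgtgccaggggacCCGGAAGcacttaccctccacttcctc
ATP5I (chr4:674421-674515, minus strand): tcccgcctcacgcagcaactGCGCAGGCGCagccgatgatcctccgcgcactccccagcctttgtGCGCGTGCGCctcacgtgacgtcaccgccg
UQCRC1 (chr3:48609664-48609713, minus strand): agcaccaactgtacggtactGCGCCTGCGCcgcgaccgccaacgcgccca
UQCRH (chr1:46303632-46303678, plus strand): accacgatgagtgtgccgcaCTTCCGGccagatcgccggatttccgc
UQCRFS1 (chr19:29213153-29213202, minus strand): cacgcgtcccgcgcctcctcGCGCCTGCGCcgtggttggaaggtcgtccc
Of the 31 genes found in the promoter table, from 250 bases before to 50 bases after the start, 7 (22.6%) held the NRF1 motif, against 6.98% of 27305 genes. The GABPA motif was in 13 (41.9%, against 12.2% of all genes) and the YY1 motif in 4 (12.9%, against 3.52%). Several spellings of the motifs were looked at before these were kept, and the background includes genes that were not tested for expression here. The part of either in the higher percentages was not tested. A match is a run of letters and says nothing on whether the factor was bound in these cells.

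HEK28 replicates 1 and 2 stood apart from all other libraries, and many of the genes shown here were among those low in them. On the first principal component over all genes tested (20.3% of the variance) these replicates lay at 86.11 and 97.28. HEK28 replicate 3 lay at -14.21, LMAN1 knockout replicate 2 at 36.47 and the parental libraries at 43.17, 27.76 and 43.27. Of the 39 genes 18 lay below all 24 knockout libraries in HEK28 replicate 1, where 21.4% of all genes tested did so, and 20 in replicate 2 (18.9% of all genes). In HEK28 replicate 3 the number was 0 (7.42% of all genes). Comparisons with HEK28 are therefore given with all 3 HEK28 libraries and with replicate 3 alone, which assumes that this 1 library varies like those of other groups.

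**Figure D1:**
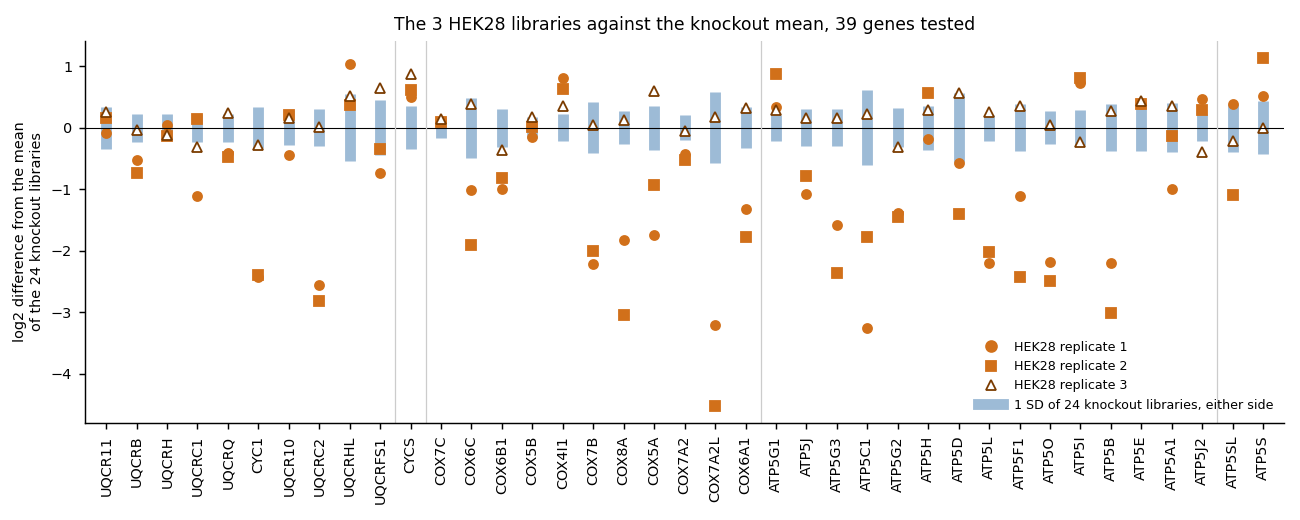
Log2 difference of each HEK28 library from the mean of the 24 knockout libraries (y axis) for the 39 genes tested (x axis, ordered by complex III, cytochrome c, complex IV, ATP synthase and other), with blue bars for 1 SD of the knockout libraries on either side of 0. Replicate 3 stays between -0.39 and 0.87, and replicates 1 and 2 lie below -1 in 17 and 16 genes.

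The low genes of those replicates included the catalytic F1 subunit ATP5B and the core protein UQCRC2, while neighbours in the same complexes were not low. ATP5B measured 93.9, 53.9 and 535 scaled RPM in HEK28 replicates 1, 2 and 3. UQCRC2 measured 23.5, 21.1 and 156, and COX7A2L, now known as an assembly factor of respiratory supercomplexes, 5.9, 2.3 and 89.2, which is 1 read each in replicates 1 and 2. In contrast COX7C, a small subunit of complex IV, was even over the replicates, at 664, 661 and 676, and COX5B, another subunit of that enzyme, stood at 311, 349 and 392. Of the 39 genes 17 and 16 lay more than 2-fold below the knockout mean in replicates 1 and 2 (23.9% and 21.5% of all genes tested), and 0 in replicate 3 (9.2%). LMAN1 knockout replicate 2 lay below the other 23 knockout libraries in 11 of the genes (9.09% of all genes) and above them in 8 (10.6%), and had 252 scaled RPM of ATP5B against 572 and 608 in replicates 1 and 3 of that line. MCFD2 knockout replicate 3 lay below the other 23 in 12 (8.14% of all genes).

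All 24 knockout libraries carried more transcript of these genes than the 3 parental libraries. The 41 genes summed to 9146 to 14731 scaled RPM in the knockout libraries, with a median of 11648, and to 5891, 6884 and 6305 in the parental libraries, so that the groups did not overlap. The HEK28 libraries summed to 8091, 8215 and 12870. Complex III genes gave 2252 to 3830 in the knockouts against 1567, 1676 and 1601 in the parental line, complex IV genes 2534 to 4007 against 1778, 2232 and 1988, and ATP synthase genes 3912 to 6547 against 2190, 2717 and 2432. As a plain share of reads in genes, without the authors' scaling, the 41 genes took 9829 to 13588 RPM in knockout libraries and 7098, 7804 and 6860 in parental libraries. In bulk RNA, fewer cells of a type and less RNA per cell cannot be told apart.

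With the 8 knockout lines pooled and set against the parental line, 26 of the 39 genes rose, where 24% of all genes tested did, and 1 fell, where 13.5% did. This comparison uses no HEK28 library for its means, although all 30 libraries share 1 estimate of the spread. The median log2 fold change of the 39 genes was 0.92, against 0.10 over all 11295 genes tested. In 18 of the 39 genes every knockout library lay above every parental library (8% of all genes), and in 0 every one lay below (5.52%). Quantile normalisation moved the median of all genes by -0.13 and changed their split from 2709 higher and 1521 lower to 2257 and 2026, and left 26 of the 39 genes higher and 1 lower. Of the 27 calls 19 were made in each of the 27 fits that left out 1 library.

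In complex III 6 of 10 genes rose and 1 fell. The largest change of all 39 was in UQCR11, a small subunit of the enzyme, with 178 to 468 scaled RPM in the knockout libraries (median 298) and 30.1, 87.1 and 121 in the parental libraries. No knockout library overlapped the parental ones, and the log2 fold change was 2.10 ± 0.22 (SE; 4.28-fold; limma, adjusted p = 9.32e-08). UQCRB, the ubiquinone-binding subunit, had 525 to 921 (median 793) in the knockouts and 186, 272 and 255 in the parental line, 3.21-fold higher (adjusted p = 1.27e-10). The hinge protein gene UQCRH had 604 to 1123 (median 841) against 347, 497 and 379, a log2 fold change of 1.06 (adjusted p = 9.01e-08), and its reads may be shared with UQCRHL, a very similar gene at 13.8 to 65.1 against 20.1, 30.8 and 38.9 that did not pass (-0.03, adjusted p = 0.948).

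The core protein UQCRC1 and the small subunit UQCRQ rose by 0.97 and 0.96 on the log2 scale (adjusted p = 7.45e-05 and 0.000173). CYC1, cytochrome c1, which hands the electron to cytochrome c, had 93.5 to 199 (median 144) in knockout libraries and 80.4, 82.0 and 74.9 in parental libraries, with no overlap. Its log2 fold change was 0.81 ± 0.28 (SE, adjusted p = 0.0234), and the call ended without any 1 of the 3 parental libraries (highest adjusted p = 0.0914). The second core protein, UQCRC2, stood at 75.1 to 204 against 176, 138 and 121, with the parental values inside the knockout range (0.11, adjusted p = 0.814), and UQCR10 did not pass (0.32, adjusted p = 0.135).

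UQCRFS1 encodes the Rieske iron-sulfur protein, the part of complex III that carries electrons to cytochrome c1, and it was the only 1 of the 39 genes called lower. It had 61.8 to 185 scaled RPM (median 110.1) in the knockouts and 211, 151 and 156 in the parental line, and the ranges overlapped. The log2 fold change was -0.62 ± 0.21 (SE; adjusted p = 0.0192), and the call ended without parental replicate 1 (adjusted p = 0.161). CYCS, cytochrome c itself, had 120.0 to 263 (median 194) in the knockouts against 271, 167 and 202, a log2 fold change of -0.16 (adjusted p = 0.342).

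Of the 11 tested genes of complex IV 7 rose and 0 fell. COX7C rose most, with 484 to 805 (median 631) in knockout libraries and 196, 266 and 225 in parental libraries, all knockouts above all parental values (2.69-fold, adjusted p = 1.35e-10). COX4I1, the ubiquitous form of the largest nuclear subunit, had 305 to 681 (median 417) against 241, 169 and 235 and was 1.97-fold higher (adjusted p = 4.45e-06). COX5B and COX6B1, also without overlap, rose by 1.02 and 1.26 on the log2 scale (adjusted p = 1.66e-07 and 1.29e-06), and COX6C by 1.28 (adjusted p = 0.00137). The changes of COX7B (0.88, adjusted p = 0.0333) and COX5A (0.74, adjusted p = 0.0311) passed, and ended without any 1 of the parental libraries (highest adjusted p = 0.216 and 0.184).

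The isoform genes of complex IV with ubiquitous expression did not all follow. COX6A1 had 190.4 to 453 (median 318) in the knockouts and 306, 497 and 435 in the parental line, a log2 fold change of -0.35 (adjusted p = 0.321). COX7A2 measured 219 to 390.5 against 206, 261 and 256 (0.30, adjusted p = 0.0629), COX7A2L 0.11 (adjusted p = 0.889) and COX8A 0.79 (adjusted p = 0.0526). None of these groups was free of overlap between knockout and parental libraries.

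ATP synthase had the largest number of calls, 13 of 15 tested genes higher and 0 lower, with a median log2 fold change of 1.05. Its c ring is built from 1 mature protein that 3 genes encode, and all of them rose without overlap of the libraries. ATP5G1 had 236 to 424 scaled RPM (median 311) in the knockouts and 85.4, 102 and 93.6 in the parental line, 3.21-fold higher (adjusted p = 2.21e-11). ATP5G2 had 274 to 674 (median 565) against 216, 266 and 219 (2.27-fold, adjusted p = 5.46e-06), and ATP5G3 367 to 798 (median 549) against 216, 238 and 184 (2.51-fold, adjusted p = 0.000563).

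The peripheral stalk, which holds the catalytic head still, rose in all 4 of its genes. ATP5J, coupling factor 6, had 234 to 487 (median 341) against 75.3, 149 and 129.6 and was 2.96-fold higher (adjusted p = 3.7e-07). ATP5H (d) rose by 1.18, ATP5F1 (b) by 0.96 and ATP5O, the oligomycin sensitivity protein, by 0.92 on the log2 scale (adjusted p = 4.87e-06, 0.0189 and 0.0141). The call of ATP5F1 ended without parental replicate 1 (adjusted p = 0.151) and that of ATP5O without parental replicate 1 or 2 (highest adjusted p = 0.0642).

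In the F1 head 4 of 5 genes rose. They were ATP5C1 (gamma, 1.19), ATP5D (delta, 1.07), ATP5E (epsilon, 0.72) and ATP5A1 (alpha, 0.53), with adjusted p of 0.0224, 0.00247, 8.48e-05 and 0.0229 in that order. ATP5A1 had 125 to 366 (median 244) in knockout libraries against 166, 182 and 147 in parental libraries, and its call and that of ATP5C1 ended without parental replicate 1 or 3 (highest adjusted p = 0.128 and 0.138). The catalytic beta subunit, ATP5B, had 252 to 720.2 (median 453) against 236, 318 and 228 and a log2 fold change of 0.78 ± 0.35 (SE) that did not pass (adjusted p = 0.0803). Of the small membrane subunits ATP5L (g) and ATP5I (e) rose by 1.05 and 0.79 (adjusted p = 0.00431 and 0.00107) and ATP5J2 (f) did not pass (0.36, adjusted p = 0.101). ATP5S, also called coupling factor B, and ATP5SL, known as an assembly factor of complex I, did not pass either (-0.21 and 0.15, adjusted p = 0.353 and 0.672).

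**Figure D2:**
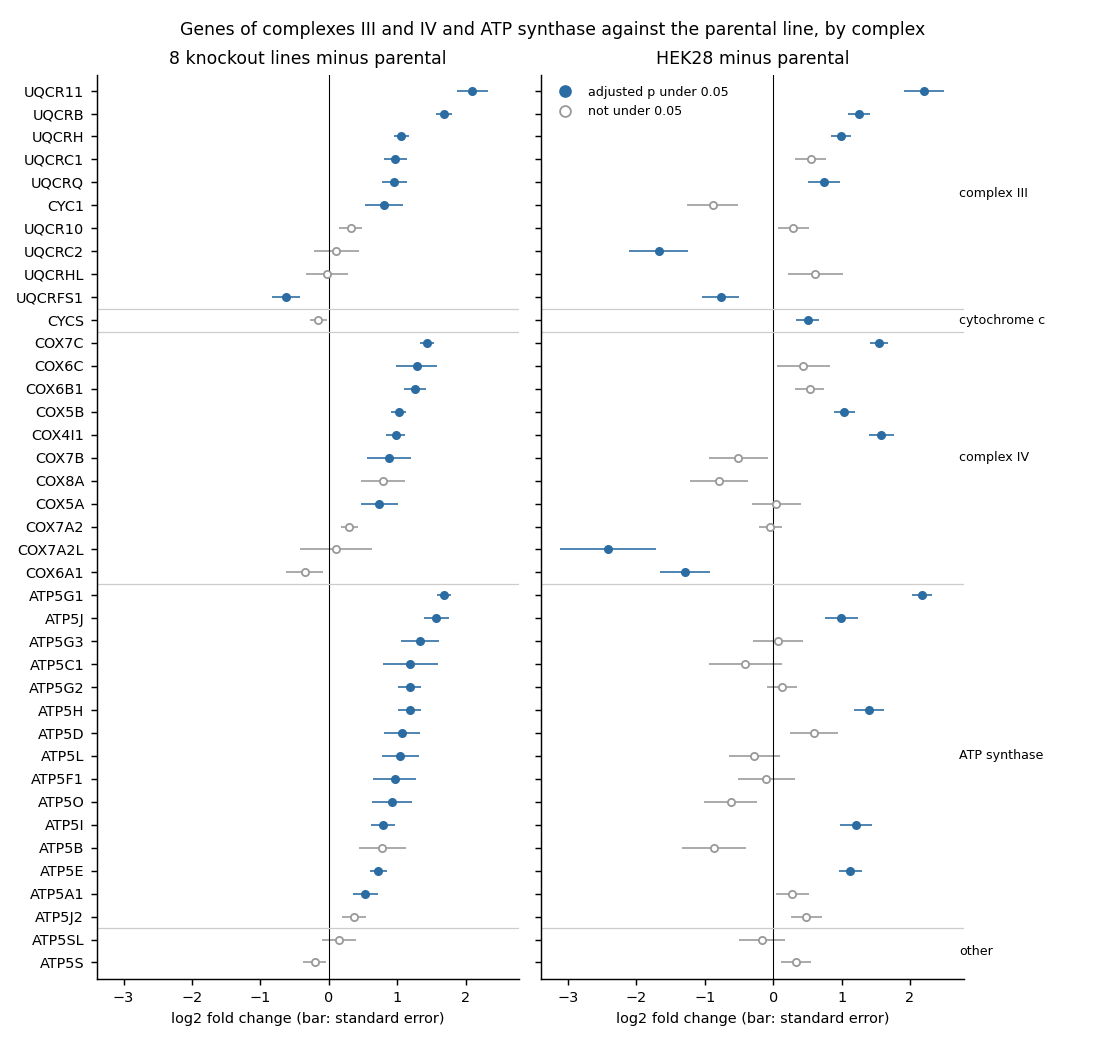
Log2 fold change with standard error (x axis) of the 39 genes tested (y axis, by complex) for the 8 knockout lines pooled minus the parental line and for HEK28 minus the parental line; filled points passed an adjusted p of 0.05. On the left 26 genes are filled to the right of 0 and UQCRFS1 to the left; on the right 13 are higher and 4 lower, and both panels share the parental libraries.

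HEK28 itself differed from the parental line in both directions. With all 3 HEK28 libraries 13 of the 39 genes were higher (16.8% of all genes tested) and 4 lower (15.2%), and the median log2 fold change was 0.34, against -0.07 over all genes. ATP5G1 had 382, 556 and 369.7 scaled RPM in HEK28 and 85.4, 102 and 93.6 in the parental line, 4.52-fold higher (adjusted p = 7.79e-11). UQCR11 had 282, 333 and 360.1 against 30.1, 87.1 and 121 (4.61-fold, adjusted p = 4.92e-06). In both genes every HEK28 library lay above every parental one, as in 12 of the 39 genes (15.7% of all genes tested).

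The remaining genes that rose in HEK28 were spread over the 3 complexes. COX4I1 had 734, 652 and 539 against 241, 169 and 235 (2.98-fold, adjusted p = 5.12e-07), and COX7C 664, 661 and 676 against 196, 266 and 225 (2.92-fold, adjusted p = 1.2e-08). The log2 fold change was 1.40 for ATP5H, 1.25 for UQCRB, 1.21 for ATP5I, 1.12 for ATP5E, 1.04 for COX5B, 1.00 for ATP5J and 0.99 for UQCRH (highest adjusted p = 0.00305, for ATP5J). UQCRQ and CYCS rose by 0.74 and 0.50 (adjusted p = 0.0191 and 0.0232), and each call ended without HEK28 replicate 3 or parental replicate 2 or 3 (highest adjusted p = 0.0967 and 0.155). CYCS had 264, 286 and 344 in HEK28 and 271, 167 and 202 in the parental line, with 1 parental library inside the HEK28 range.

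The genes called lower in HEK28 rested on replicates 1 and 2. COX7A2L had a log2 fold change of -2.41, UQCRC2 of -1.68, COX6A1 of -1.29 and UQCRFS1 of -0.77 (adjusted p = 0.0106, 0.00442, 0.00884 and 0.0344). With replicate 3 alone they were at 0.28, 0.12, -0.03 and 0.01 (adjusted p = 0.786, 0.823, 0.961 and 0.981). UQCRC2 had 23.5, 21.1 and 156 scaled RPM in HEK28 against 176, 138 and 121 in the parental line, so that replicate 3 lay inside the parental range. The call of COX7A2L ended without HEK28 replicate 1 or 2 or parental replicate 2 (highest adjusted p = 0.111), that of COX6A1 without HEK28 replicate 2 (0.0809) and that of UQCRFS1 without HEK28 replicate 1 or 2 or parental replicate 1 (0.216).

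With HEK28 replicate 3 alone 25 of the 39 genes were higher than in the parental line and 0 lower, where 13.4% and 8.66% of all genes tested were, and 12 of the calls were shared with the fit on 3 libraries. In that fit ATP5B was at 1.05, ATP5A1 at 0.89, ATP5G2 at 0.86 and ATP5G3 at 1.49 (adjusted p = 0.0243, 0.0134, 0.00865 and 0.000967), none of which passed with 3 libraries. ATP5B passed in the other direction without replicate 3 (-1.83, adjusted p = 1.6e-05). CYC1 was at 0.53 with replicate 3 alone (adjusted p = 0.256) and at -0.89 with all 3 (adjusted p = 0.0694), and CYCS at 0.72 (adjusted p = 0.025). Of the 39 genes 35 were above 0.

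Each knockout was also set against HEK28, the line it was made from, and 1 set of HEK28 libraries serves all 8 comparisons. In the CANX knockout 14 of the 39 genes were higher (12.4% of all genes tested) and 4 lower (6.46%). In the CALR knockout the counts were 12 higher (12%) and 5 lower (6.19%), in the LMAN1 knockout 10 higher (4.47%) and 0 lower (0.956%), and in the MCFD2 knockout 9 higher (10.5%) and 4 lower (7.45%). In the GABARAP knockout they were 9 higher (4.03%) and 1 lower (1.64%), in the GABARAPL1 knockout 12 higher (7.05%) and 2 lower (2.79%), in the GABARAPL2 knockout 19 higher (18.5%) and 2 lower (7.75%), and in the ATG7 knockout 11 higher (8.33%) and 2 lower (4.25%).

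With HEK28 replicate 3 alone 0 of the 39 genes were higher in any of the 8 knockouts. Genes called higher with 3 libraries included some that were low in HEK28 replicates 1 and 2, such as CYC1, at 23.5, 25.8 and 115 scaled RPM in HEK28 and 93.5 to 199 in the knockouts. In the GABARAPL2 knockout CYC1 was at 2.05 on the log2 scale with 3 HEK28 libraries (adjusted p = 0.000712) and at 0.63 with replicate 3 alone (adjusted p = 0.351). ATP5B in that knockout was at 2.28 and 0.36 (adjusted p = 0.00171 and 0.672), COX7A2L at 3.15 and 0.46 (adjusted p = 0.00307 and 0.785), and ATP5C1 at 2.65 and 0.83 (adjusted p = 0.00167 and 0.458). The same pairs for UQCRC2 were 1.96 and 0.16 in the CANX knockout and 1.93 and 0.13 in the CALR knockout. All genes tested gave 1.19% to 3.96% higher calls in these 8 comparisons with replicate 3 alone.

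**Figure D3:**
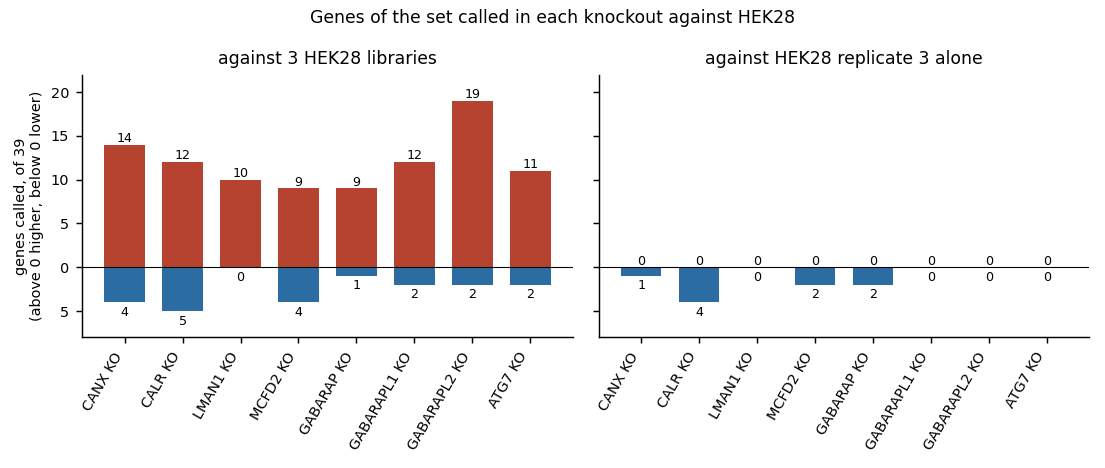
Number of the 39 genes called higher (red, above 0) and lower (blue, below 0) in each knockout against all 3 HEK28 libraries (left) and against HEK28 replicate 3 alone (right); the y axis counts genes. The counts of higher genes are 9 to 19 on the left and 0 on the right.

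In 4 of the 8 knockouts cytochrome c was lower than in HEK28 both with 3 HEK28 libraries and with replicate 3 alone. CYCS had 121, 148 and 139.8 scaled RPM in the CALR knockout and 152, 127 and 120.0 in the MCFD2 knockout. It had 171, 195 and 192 in the CANX knockout and 159, 193 and 170.5 in the GABARAP knockout, against 264, 286 and 344 in HEK28. No library of any of the 8 knockout lines reached the HEK28 range (highest 262.7), so this separation was not particular to these 4 lines. The log2 fold change was -1.13 in the CALR, -1.17 in the MCFD2, -0.67 in the CANX and -0.77 in the GABARAP knockout (adjusted p = 8.93e-05, 6.69e-05, 0.00873 and 0.0119). With HEK28 replicate 3 alone it was -1.35, -1.38, -0.89 and -0.99 in the same order (adjusted p = 0.000978, 0.000797, 0.0308 and 0.0168). In the GABARAPL1 knockout CYCS was at -0.60 with 3 libraries (adjusted p = 0.028) and -0.81 with replicate 3 alone (adjusted p = 0.0677), and the first call ended in 5 of 6 fits without 1 library, all but that without HEK28 replicate 3 (highest adjusted p = 0.0824). For GABARAP, leaving out replicate 1 of the knockout ended the call on CYCS (adjusted p = 0.0568). In the LMAN1, GABARAPL2 and ATG7 knockouts CYCS passed neither way, at -0.29, -0.25 and -0.41 with 3 libraries (adjusted p = 0.303, 0.288 and 0.103) and -0.50, -0.46 and -0.62 with replicate 3 alone (adjusted p = 0.357, 0.321 and 0.174).

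The other genes lower with replicate 3 alone were ATP5E, UQCRFS1 and ATP5D in the CALR knockout (-1.16, -1.39 and -1.29, adjusted p = 0.0069, 0.00958 and 0.0443), COX5A in the MCFD2 knockout (-1.34, adjusted p = 0.00979) and ATP5A1 in the GABARAP knockout (-1.16, adjusted p = 0.0132). In the remaining knockouts, LMAN1, GABARAPL1, GABARAPL2 and ATG7, 0 were. Of all genes tested 0.0974% to 2.02% were lower in these fits. COX4I1 and ATP5G1 were lower with 3 HEK28 libraries in the CANX, CALR and MCFD2 knockouts (-0.59 to -0.81) and passed in none of these 3 with replicate 3 alone (lowest adjusted p = 0.151). Their log2 fold changes were then -0.49, -0.44 and -0.57 for COX4I1 and -0.38, -0.40 and -0.43 for ATP5G1 in these knockouts, in the same direction as with 3 libraries. With 3 libraries COX4I1 was also lower in the GABARAPL2 knockout and ATP5G1 in the ATG7 knockout (limma, adjusted p = 0.01 and 0.00361). With replicate 3 alone these 2 changes were -0.43 and -0.53.

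Among the 8 knockout lines, compared without HEK28, 8 of the 39 genes varied by limma's F test, where 13.2% of all genes tested did. The summed level of the 41 genes was highest in the GABARAPL2 knockout, at 14731, 14127 and 13030 scaled RPM, followed by the LMAN1 knockout at 13084, 11308 and 13884. It was lowest in the MCFD2 knockout, at 10350, 11418 and 9146, and in the CALR knockout, at 10867, 9805 and 11418. The CANX, GABARAP, GABARAPL1 and ATG7 knockouts lay between these, from 10777 to 12653, and neighbouring lines in this order overlapped. The genes that varied were ATP5E (F = 9.11, adjusted p = 0.000976), CYCS (8.89, adjusted p = 0.00106), ATP5S (7.00, adjusted p = 0.00392), ATP5A1 (5.06, adjusted p = 0.0175), UQCRFS1 (4.60, adjusted p = 0.0258), ATP5D (4.59, adjusted p = 0.0261), ATP5H (4.54, adjusted p = 0.0269) and ATP5G2 (3.81, adjusted p = 0.0493). The first 3 passed in each of the 24 fits that left out 1 knockout library, ATP5G2 in 1 of them, and the call of 19 genes with voom weights was the largest number under any setting.

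**Figure D4:**
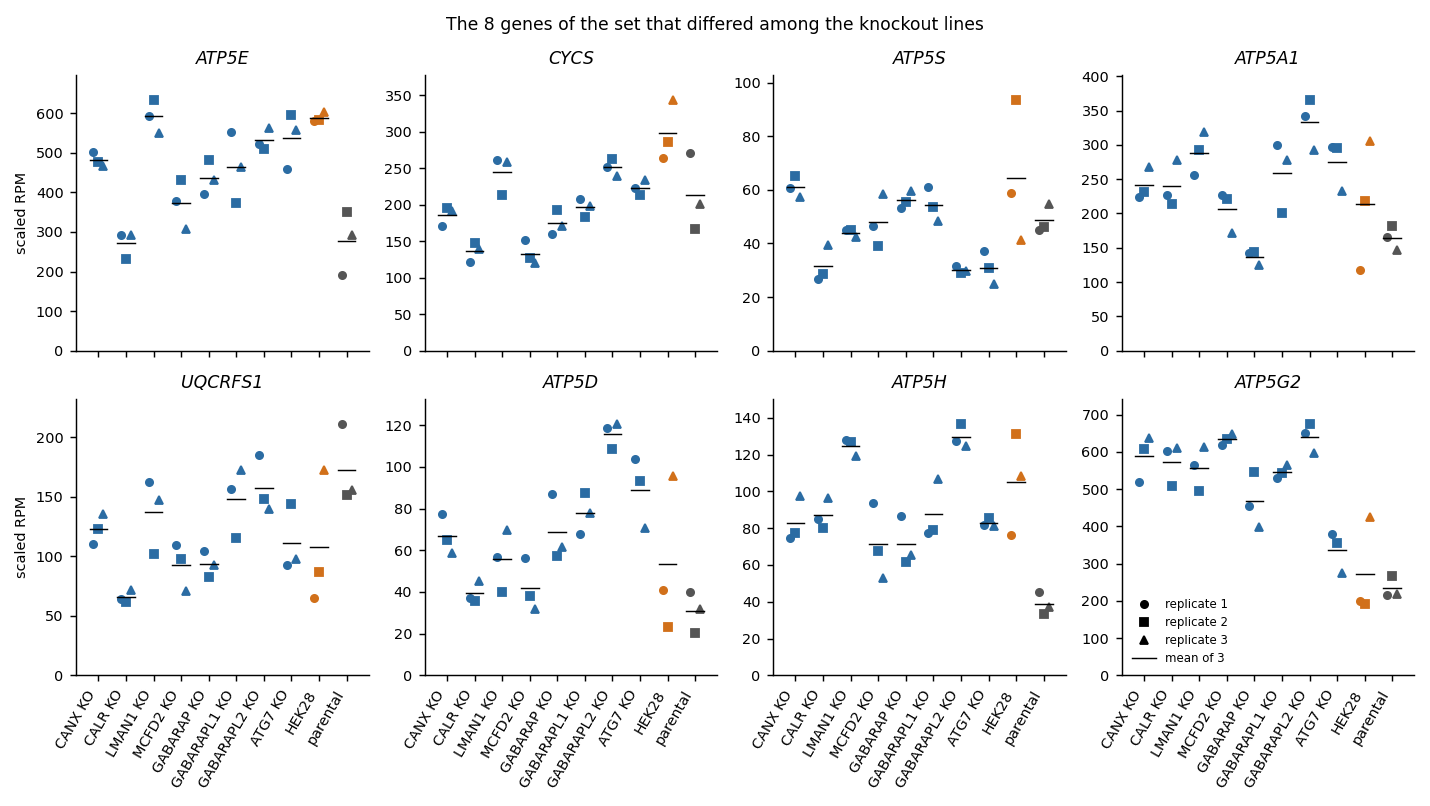
Scaled RPM (y axis, from 0) in each library of the 8 knockout lines, HEK28 and the parental line (x axis) for the 8 genes that varied among the knockouts, with symbols for replicates and a line for the mean. ATP5E is lowest in the CALR knockout among the knockout lines, at 231 to 293, and ATP5A1 in the GABARAP knockout, at 125 to 144.

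The CALR knockout, set against the other 7, had 0 genes higher (1.47% of all genes tested) and 4 lower (1.47%). ATP5E, the epsilon subunit of F1, had 293, 231 and 292 scaled RPM in this line, below all 21 libraries of the other knockouts, the lowest of which was at 307 in the MCFD2 knockout. Its log2 fold change was -0.83 ± 0.13 (SE, adjusted p = 0.000406), and the call was made in each of the 24 fits without 1 library (highest adjusted p = 0.0185). Reads of ATP5E may be shared with its pseudogene ATP5EP2. UQCRFS1 had 64.2, 61.8 and 71.9 in this line (-0.86, adjusted p = 0.0227), COX6B1, a small subunit of complex IV, 176, 158 and 161 (-0.61, adjusted p = 0.0387) and CYCS the values above (-0.54, adjusted p = 0.0191). Each of these 3 calls ended without any 1 of the CALR knockout libraries (highest adjusted p = 0.169, 0.225 and 0.22), and that of COX6B1 in 7 of the 24 such fits in all.

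In the MCFD2 knockout against the other 7, 0 genes were higher (1.62% of all genes tested) and 2 lower (3.41%). They were CYCS (-0.58 ± 0.13, SE, adjusted p = 0.00713) and UQCRB, at 572, 638 and 525 scaled RPM (-0.45, adjusted p = 0.0303). The call of CYCS ended without MCFD2 knockout replicate 2 or 3 (highest adjusted p = 0.0827) and that of UQCRB without replicate 1 or 3 (0.21). Voom weights called 1 gene higher and 9 lower in this line, and 1 higher and 9 lower in the CALR knockout.

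In the GABARAPL2 knockout against the other 7, 3 genes were higher (2.59% of all genes tested) and 1 lower (1.55%). ATP5D, the delta subunit, had 119, 108 and 120.5 scaled RPM in this line, above every other knockout library, and a log2 fold change of 0.95 ± 0.27 (SE, adjusted p = 0.0426). ATP5H, a stalk subunit, had 127, 136 and 125 (0.60, adjusted p = 0.0409) and CYCS 252, 263 and 239.7 (0.47, adjusted p = 0.0321), both overlapping the LMAN1 knockout. ATP5S was lower, at 31.5, 28.8 and 29.8 (-0.59, adjusted p = 0.0496). These values overlapped the CALR knockout (26.9, 28.6 and 39.6) and the ATG7 knockout (37.1, 30.8 and 24.9). All 4 calls ended without any 1 of the GABARAPL2 knockout libraries (highest adjusted p = 0.19, 0.245, 0.219 and 0.258). Over all 24 fits that left out 1 knockout library, the call was lost in 14 for ATP5D, 13 for ATP5H, 3 for CYCS and 22 for ATP5S. Quantile normalisation called 1 higher and 1 lower, and voom weights 19 higher and 1 lower, and 33 of the 39 genes were above 0 in this line (median 0.31, against 0.06 over all genes).

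In the GABARAP knockout 0 genes were higher (0.797% of all genes tested) and 1 lower (1.86%), ATP5A1, at 142, 144 and 125 scaled RPM. The lowest of the other 21 knockout libraries had 172, and the log2 fold change was -0.92 ± 0.18 (SE; 1.89-fold lower, adjusted p = 0.00591), a call that ended without GABARAP knockout replicate 3 (adjusted p = 0.064). In the ATG7 knockout 0 were higher (0.301%) and 1 lower (1.13%), ATP5G2, at 378, 354 and 274 against 399 to 674 in the other knockout lines. Its log2 fold change was -0.77 (adjusted p = 0.0169), and the call ended without ATG7 knockout replicate 1 or 3 (highest adjusted p = 0.172). In the CANX knockout 0 of the 39 genes passed by limma in either direction (0.549% of all genes tested were higher and 0.921% lower), and 3 had an unadjusted p under 0.05. In the LMAN1 knockout 0 passed (0.62% higher and 0.425% lower) and 7 had such a p, and in the GABARAPL1 knockout 0 passed (0.133% and 0.221%) and 4 did. Voom weights called 1, 6 and 0 genes in these 3 lines.

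Some of these genes lie in stretches of chromosome whose other genes were shifted the same way. Within 5 Mb on either side of ATP5A1 on chromosome 18, 19 of 24 tested neighbours were below 0 in the GABARAP knockout, 7 of them called lower and 0 higher, with a median of -0.61 against 0.00 over all genes. Around ATP5G2 on chromosome 12, 103 of 140 neighbours were below 0 in the ATG7 knockout, 9 called lower and 0 higher (median -0.36). In the CALR knockout the neighbours of ATP5E on chromosome 20 had a median of -0.29 (44 of 58 below 0), those of COX6B1 on chromosome 19 of -0.37 (93 of 115) and those of UQCRFS1, also on chromosome 19, of -0.51 (19 of 23), against 0.02 over all genes. Around CYCS on chromosome 7 the median was 0.04 in the CALR, -0.03 in the MCFD2 and 0.04 in the GABARAPL2 knockout. Around UQCRB on chromosome 8 it was -0.02 in the MCFD2 knockout, against -0.03 over all genes. In the GABARAPL2 knockout it was 0.06 around ATP5H, 0.1 around ATP5D and -0.11 around ATP5S, against 0.06 over all genes. The part of the neighbourhood in these gene results was not tested.

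Other genes of the same organelle were counted for the 2 comparisons with the parental line, which share its libraries. In the 8 knockouts pooled against the parental line 25 of 37 complex I subunit genes were higher and 1 lower (median log2 fold change 0.94), and 0 of 4 complex II genes passed in either direction. Of 15 markers of mitochondrial mass, such as the import receptor TOMM20 and the channel VDAC1, 9 were higher and 0 lower (median 0.78), and their summed level was 3237 to 5801 scaled RPM in the knockouts, 3423 to 4848 in HEK28 and 2094 to 2378 in the parental line. Of genes listed for assembly 4 of 6 were higher and 1 lower for complex III, and 9 of 27 higher and 3 lower for complex IV. A list for assembly and regulation of ATP synthase had 3 of 7 higher and 0 lower. The genes called were ATPAF1, C14orf2 and USMG5 (0.66, 0.76 and 0.99). The lists for complex IV and ATP synthase are not limited to assembly factors. Of 10 tested nuclear regulators of respiratory genes 0 were higher and 3 lower (median -0.23), and of 5 tested HIF-linked respiratory genes 2 were higher and 0 lower. Over all genes tested, 24% were higher and 13.5% lower in this comparison. Of 5 tested HEK293 markers NEFL, VIM and NEFM were higher (1.52, 1.20 and 0.42, highest adjusted p = 0.000231), and IGF2BP1 and LIN28B did not pass (-0.16 and -0.08, adjusted p = 0.477 and 0.784).

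In HEK28 against the parental line, where 16.8% of all genes tested were higher and 15.2% lower with 3 HEK28 libraries, and 13.4% and 8.66% with replicate 3 alone, complex I had 18 higher and 1 lower of 37 genes with 3 libraries and 19 and 0 with replicate 3 alone. Complex II had 0 higher and 1 lower of 4, and 0 and 0 with replicate 3 alone. The mass markers had 5 higher and 2 lower of 15, and 7 and 0 with replicate 3 alone, and the regulators 1 higher and 3 lower of 10, and 0 and 2. With 3 libraries the genes listed for assembly had 3 higher and 1 lower of 6 for complex III, and 5 and 3 of 27 for complex IV. Those for assembly and regulation of ATP synthase had 2 and 0 of 7. The median log2 fold changes of these lists were 0.72, -0.22 and 0.41 with 3 libraries. With replicate 3 alone they were 0.45, 0.54 and 1.01. Of the HIF-linked genes 0 were higher and 1 lower of 5, and 0 and 0 with replicate 3 alone, and of the HEK293 markers 3 were higher and 0 lower of 5 both ways. The part of mitochondrial mass, and of those HEK293 markers that were also higher in HEK28-derived lines, in the difference from the parental line was not tested.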

How the data were processed

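The labels' protocols give column-purified RNA and 3' RNA-seq on an Illumina HiSeq, and the notes the submitters left on processing list TopHat2, Bowtie, cutadapt, FastQC and the hg38 build. The counting tool and annotation, and how values were normalised, are not given in the sources used. The deposited table holds log2 values of 16975 genes in 30 samples. Their steps show that each is the log2 of a whole number of reads plus 0.5, divided by a length per gene and a size per library. Reads were resolved for 16937 genes (all 41 described) by a procedure tested on simulated data. The recovered lengths bear no relation to exon lengths of GENCODE 29 (Spearman's rho 0.0084 over 16900 genes), so levels are not compared between genes. The spread between replicates is the error given.

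Samples were grouped by their titles. The cell-line label reads HEK28 for all 30 samples, the parental ones included, whose titles and genotype labels name the parental line, and the genotype label of 1 LMAN1 knockout sample is misspelled. The log2 values were fitted with limma 3.58.1 (R 4.3.3) with a trend and robust empirical Bayes moderation, all 30 samples in 1 model with 1 coefficient per group, since the table holds normalised values and not the counts for which edgeR was an option. A gene entered with a CPM of 15.4 or more (10 reads at the median depth) in 3 libraries and 15 reads in all: 11295 genes, 39 of the 41. The CPM was computed here from the recovered reads and is not a deposited unit. The p-values are two-sided and adjusted by Benjamini-Hochberg over all genes tested in each of 19 comparisons, with a threshold of 0.05. Replicate pairs differed beyond counting noise (lowest chi-square per degree of freedom 1.52). Alternatives were no filter, quantile normalisation, voom weights, a replicate block, each library left out, HEK28 replicate 3 alone and, added after seeing the data, the length taken out of the trend.

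The members, gene lists and tests were chosen with earlier results of these data known. Genes named with full values were taken by a rule. It kept the 4 largest changes in each direction that passed in each comparison, CYC1, CYCS, ATP5A1, ATP5B and the paralog families. The others are named to account for each member. Against HEK28 not all changes kept by the rule are described. Among those left out are lower calls of ATP5I (CANX knockout), ATP5E (MCFD2), UQCRHL (GABARAPL1) and ATP5S (CALR, GABARAPL2 and ATG7). Several spellings of the promoter motifs were looked at before these 3 were kept. Promoters matched 31 members by name and 10 did not match. Gene positions are from GENCODE 29 (GRCh38), except for the promoters, which are placed by RefSeq starts. Reads shared with pseudogenes or paralogs cannot be told apart.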

Additional observations from a re-analysis of the deposited data

How the results depend on the processing

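Of 1446 values of single genes with 1 library left out, 1190 kept their direction and side of the threshold, 231 lost the call, 9 gained one and 16 changed sign; of 626 under other settings the numbers were 526, 66, 8 and 26. With 1 library left out, the number of the 39 genes called was 19 to 28 for the 8 knockouts pooled and 15 to 24 for HEK28, both against the parental line, and 4 to 8 among the knockouts. Against HEK28 it was 4 to 25 for the CANX, 8 to 25 for the CALR, 0 to 21 for the LMAN1, 5 to 22 for the MCFD2, 0 to 23 for the GABARAP, 1 to 25 for the GABARAPL1, 15 to 25 for the GABARAPL2 and 3 to 25 for the ATG7 knockout. Against the other 7 knockouts it was 1 to 4 for the CALR, 0 to 2 for the MCFD2, 0 to 1 for the GABARAP, 0 to 3 for the GABARAPL2 and 0 to 1 for the ATG7 knockout.

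With HEK28 replicate 3 alone the knockouts against HEK28 gave 1 (CANX), 4 (CALR), 0 (LMAN1), 2 (MCFD2), 2 (GABARAP), 0 (GABARAPL1), 0 (GABARAPL2) and 0 (ATG7) calls. The log2 fold changes that changed sign in that setting were, for HEK28 against the parental line, ATP5B 1.05, COX7A2 0.24, COX7A2L 0.28, COX7B 0.92, COX8A 0.91, CYC1 0.53, UQCRC2 0.12 and UQCRFS1 0.01. Against HEK28 they were ATP5B -0.13 and ATP5C1 -0.03 in the CANX knockout, COX7A2L -0.27 and COX8A -0.16 in the CALR knockout, ATP5B -0.27, ATP5O -0.10 and UQCRC2 -0.32 in the LMAN1 knockout, and ATP5O -0.04, COX7A2L -0.25, COX8A -0.08 and UQCRC2 -0.10 in the MCFD2 knockout. They were ATP5B -0.29 and UQCRC2 -0.26 in the GABARAP knockout, ATP5C1 -0.06 and COX7A2L -0.26 in the GABARAPL1 knockout, and COX7A2L -0.34 and UQCRC2 -0.05 in the ATG7 knockout. Fewer samples enter this setting by construction.

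Against HEK28 the LMAN1 knockout had 4 calls with no filter and 4 with quantile normalisation, and the GABARAP knockout 5 with no filter and 4 with voom weights. Voom weights gave 19 calls among the knockouts and, against the other 7, 1 for the CANX, 10 for the CALR, 6 for the LMAN1, 10 for the MCFD2 and 20 for the GABARAPL2 knockout. In that comparison the CANX knockout had 1 call with the gene length removed (an alternative added after seeing the data), the LMAN1 knockout 1 with no filter, and the GABARAPL2 knockout 1 with no filter and 2 with quantile normalisation. COX7A2L in the pooled knockouts against the parental line was at -0.03 with quantile normalisation. For these the cause was not tested.

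With 1 library left out, signs changed within ranges of -0.03 to 0.65 for ATP5A1, -0.24 to 0.33 for ATP5G2, -0.64 to 0.62 for ATP5G3 and -0.18 to 0.05 for COX7A2 in HEK28 against the parental line, and of -0.08 to 0.44 for COX7A2L, -0.32 to 0.03 for CYCS and -0.25 to 0.16 for UQCRHL in the pooled knockouts against it.

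Same-numbered samples did not deviate together on average (mean r 0.00152, lowest -0.25). A mean over all groups cannot show whether some of them shared a batch, which was not tested. With a replicate block 7 genes were called among the knockouts, 17 in HEK28 and 28 in the pooled knockouts against the parental line, and 18, 16, 10, 13, 11, 14, 21 and 13 in the CANX, CALR, LMAN1, MCFD2, GABARAP, GABARAPL1, GABARAPL2 and ATG7 knockouts against HEK28. The block left 2 for the GABARAPL2 knockout against the other 7. HEK28 replicate 1 is the shallowest library (159825 reads). COX7A2L had 1 read among 438731 in HEK28 replicate 2 and 28 among 322876 in HEK28 replicate 3. The part of depth in the low genes of HEK28 replicates 1 and 2 was not tested.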

Other observations

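The table lists 0 mitochondrially encoded genes, and it lists nuclear copies of them, whose reads cannot be told apart from those of the mitochondrial transcripts. In a block of such copies on chromosome 1 (631074 to 634922, GRCh38) the copy of the catalytic complex IV subunit gene, MTCO1P12, had 1245 to 2011 scaled RPM in the knockout libraries (median 1518), 1380, 1521 and 1195 in HEK28 and 3847, 3952 and 4604 in the parental line. All knockout and HEK28 libraries lay below all parental ones. The log2 fold change was -1.41 in the 8 knockouts pooled against the parental line (limma, adjusted p = 2.73e-11) and -1.60 in HEK28 against it (adjusted p = 9.87e-10; -1.78 with HEK28 replicate 3 alone, adjusted p = 8.22e-08), while 7 of 11 nuclear complex IV genes rose in the first of these comparisons.

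MTCO3P12, the copy of another complex IV core gene, stood at 430 to 1001, with 435, 567 and 408 in HEK28 and 1045, 1212 and 1340 in the parental line, with log2 fold changes of -1.04 and -1.35 (adjusted p = 9.87e-07 and 2.22e-06; -1.54 in HEK28 replicate 3 alone, adjusted p = 6.56e-05). MTCO2P12, at 981, 1078 and 2400 in HEK28 and 1688, 1832 and 2256 in the parental line, did not pass in either comparison (0.29 and -0.49, adjusted p = 0.185 and 0.1; 0.33 in HEK28 replicate 3 alone, adjusted p = 0.278). MTATP6P1, the copy of an ATP synthase gene, was at 2420 to 6024 in the knockouts, 5807, 6344 and 4937 in HEK28 and 6745, 6805 and 7245 in the parental line. It was lower in the knockouts (-0.68, adjusted p = 2.1e-05), did not pass in HEK28 (-0.29, adjusted p = 0.123; -0.49 with replicate 3 alone, adjusted p = 0.0688) and varied among the 8 knockout lines (F = 15.61, adjusted p = 3.12e-05). The overlapping copy MTATP8P1, whose reads were not resolved, went the other way. Its deposited log2 values were 10.26 to 11.67 in the knockouts, 10.47, 10.88 and 11.06 in HEK28 and 10.36, 10.40 and 10.70 in the parental line. It was higher in the knockouts (0.51, adjusted p = 0.00272), did not pass in HEK28 (0.32, adjusted p = 0.157; 0.58 with replicate 3 alone, adjusted p = 0.0646) and varied among the knockout lines (F = 8.12, adjusted p = 0.0018). Elsewhere in the genome 5 other copies of mitochondrial complex IV and ATP synthase genes were tested. MTCO1P2 (-1.51), MTCO1P40 (-1.40) and MTATP8P2 (-1.94) were lower in the knockouts than in the parental line. MTCO2P22 was higher (1.40) and MTCO2P2 did not pass (1.25, adjusted p = 0.111), and the highest adjusted p of the calls was 0.00503. MTCYBP18, a copy of the cytochrome b gene of complex III, had 45.7 to 141.9 scaled RPM in the knockouts. It had 111.6, 72.7 and 57.4 in HEK28 and 271.2, 287.0 and 377.2 in the parental line. It was lower in the knockouts (-2.02, adjusted p = 4.98e-07) and in HEK28 (-1.97, adjusted p = 5.1e-05, and -2.4 with replicate 3 alone). Copies of complex I genes are not described here. The nuclear pseudogene ATP5EP2, a copy of ATP5E on chromosome 13, was higher in the knockouts (0.85, adjusted p = 0.00213) and in HEK28 with 3 libraries (1.41, adjusted p = 0.000364), and did not pass with HEK28 replicate 3 alone (1.00, adjusted p = 0.054).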
